A study of Mus musculus with 45 samples.

Results

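The genes that mark GABA interneurons were followed through 6 windows of the mouse genome (build mm9), 1 each for Gad1, Gad2, Slc32a1, Sst and Pvalb and 1 shared by the neighbouring genes Dlx1 and Dlx2. H3K9ac, the acetylation of lysine 9 on histone H3, marks promoters and enhancers in use. It was measured there by chromatin immunoprecipitation and sequencing (ChIP-seq) of whole mouse hippocampus. Every deposited H3K9ac domain that overlaps a window was taken, which gave 15 of 44165 domains. Domains were taken by their position alone, in windows around genes that were chosen with earlier results of these data known. Each of the 15 held reads in every one of the 23 H3K9ac libraries, from 1 to 393 reads.

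The groups were transgenic MAPT P301S mice, which carry a mutant human tau and model tau aggregation, and wild type (WT) mice matched for age and sex. At 6 months they were females, with 2 tau and 3 WT libraries, and at 11 months males, with 3 and 3, so age and sex changed together. The sources used here do not name the promoter that drives the tau transgene. In the other model, female CK-p25 mice, which carry both transgenes, were set against CK control littermates at 2 and 6 weeks after induction of p25, with 3 libraries per group. The mice were then 3.5 and 4.5 months of age, so the later time is also the older age. In this model p25, an activator of the kinase Cdk5, is switched on in forebrain excitatory neurons through the Camk2a promoter, and CK mice carry the driver without p25. The study asked at which domains acetylation changes in the disease models. Tau and CK-p25 libraries were made with different antibody lots and were normalised apart, so levels are compared within a model only.

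GABA is the main inhibitory transmitter of the forebrain. In the hippocampus it is made by a minority of neurons, the interneurons, which restrain and time the firing of the excitatory pyramidal cells. Gad1 and Gad2 encode the enzymes GAD67 and GAD65, which make GABA from glutamate, and Slc32a1 encodes the transporter that loads GABA into synaptic vesicles. Sst (somatostatin, a neuropeptide) and Pvalb (parvalbumin, a calcium-binding protein) mark separate classes of interneurons. Dlx1 and Dlx2 encode homeodomain transcription factors that direct interneuron development. In tissue of mixed cells, fewer interneurons and less acetylation per interneuron cannot be told apart.

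The promoters of the genes whose windows are described most fully below are shown first, so that the base composition of these loci can be seen. The sequences are those of RefSeq on GRCm38.p6 (not the build of the domains), read on the strand of the gene, from 250 bases before the transcript start to 50 after it. Capitals mark matches to the motifs searched.
Gad1 promoter (chromosome 2, plus strand): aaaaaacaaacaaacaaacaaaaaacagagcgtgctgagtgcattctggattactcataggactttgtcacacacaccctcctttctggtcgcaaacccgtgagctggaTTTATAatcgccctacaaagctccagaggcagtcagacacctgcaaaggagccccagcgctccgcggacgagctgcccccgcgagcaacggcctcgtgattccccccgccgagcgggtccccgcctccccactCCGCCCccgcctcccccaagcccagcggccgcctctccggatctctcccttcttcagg
Gad2 promoter (chromosome 2, plus strand): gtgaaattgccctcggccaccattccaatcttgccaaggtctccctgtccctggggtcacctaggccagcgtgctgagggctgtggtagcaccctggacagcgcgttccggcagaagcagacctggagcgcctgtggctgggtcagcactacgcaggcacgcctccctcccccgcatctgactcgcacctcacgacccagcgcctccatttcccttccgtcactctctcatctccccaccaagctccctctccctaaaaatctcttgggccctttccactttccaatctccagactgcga
Sst promoter (chromosome 16, minus strand): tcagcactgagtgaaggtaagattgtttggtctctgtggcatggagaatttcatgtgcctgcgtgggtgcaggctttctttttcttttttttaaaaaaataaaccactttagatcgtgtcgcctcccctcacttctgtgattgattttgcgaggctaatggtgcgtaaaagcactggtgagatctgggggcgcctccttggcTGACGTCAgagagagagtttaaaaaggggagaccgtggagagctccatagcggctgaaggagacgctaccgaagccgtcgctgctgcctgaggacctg
All 7 genes were matched by symbol, to 8 promoters, since Pvalb has 2. The first motif searched was TGACGTCA, the cAMP response element. The next was TAATTA, the core bound by homeodomain proteins. The GC box was searched as GGGCGG. Searches for the TATA box used TATAAA. Both strands were searched, and no matches overlapped. The Gad1 promoter held 21 CG dinucleotides, against a median of 7 over 32851 promoters. It held a GC box on the minus strand that begins 8 bases before the start, a motif present in 35.7% of all promoters. It also held TATAAA on the minus strand, found in 13.6% of all promoters. The Gad2 promoter held 14 CG dinucleotides and none of the 4 motifs. The Sst promoter held 13 CG dinucleotides and the palindrome TGACGTCA 48 bases before the start, a motif in 1.79% of all promoters. The Slc32a1 promoter held 17 CG dinucleotides, the Pvalb promoters 5 and 25, and none of these 3 held a motif. Those of Dlx1 and Dlx2 held 27 and 29, with a GC box each. TAATTA, found in 5.29% of all promoters, occurred in none of the 8. Which domain covers a transcript start was not determined, since no annotation of build mm9 was used here.

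Depth, as reads within domains, ran from 4.10 to 6.18 M in libraries of the tau series and from 0.996 to 4.13 M in those of CK-p25 and CK mice. The shallowest were replicate 3 of CK (0.996 M) and replicate 3 of CK-p25 (1.31 M) at 6 weeks. The labels give cross correlation, which reports how enriched a ChIP library is. It was 0.228 ± 0.0263 in tau and 0.313 ± 0.0250 in WT libraries at 11 months (SD, n = 3 each), and these groups did not overlap. At 6 months it was 0.243 ± 0.0164 (n = 2) in tau and 0.245 ± 0.00303 (n = 3) in WT libraries. It was 0.167 in CK-p25 and 0.138 in CK libraries at 2 weeks, and 0.131 in CK-p25 and 0.0928 in CK libraries at 6 weeks. The labels do not say that each library is a separate animal, so p-values measure the spread between these libraries. Levels are counts scaled to a library's TMM-adjusted total (CPM).

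The Gad1 window (chromosome 2 from 70390000 to 70445000) held 4 domains. Domain 2, from 70399247 to 70403118, was 3872 bp wide, wider than 96.3% of all domains, and averaged 54.7 CPM in the tau series, or 14.1 CPM per kb. Domain 1 (70396071 to 70396197) spans 127 bp, domain 3 (70403498 to 70405076) 1579 bp and domain 4 (70406326 to 70406669) 344 bp. Domains 2 and 3 are 379 bp apart. Per kb, domain 3 held 6.83 CPM in the tau series.

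H3K9ac over the broad Gad1 domain fell in tau mice at 11 months. It was at 34.1, 41.4 and 33.3 CPM in tau mice (36.3 ± 4.48, SD, n = 3), against 64.7, 55.8 and 60.6 CPM in WT mice (60.4 ± 4.46, n = 3). The highest tau library lay below the lowest WT library, and tau mice held 0.594 of the WT level. The log2 change was -0.75 ± 0.09 (SE; edgeR adjusted p = 2.23e-10), which ranked 191 by p among 44105 domains tested. Cross correlation moved with these groups, and with it as a covariate the change was -0.74 ± 0.18 (edgeR adjusted p = 0.0182).

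At 6 months no loss was measured at the same domain. Its level was 64.0 and 63.0 CPM in tau mice (63.5 ± 0.694, SD, n = 2), against 64.6, 58.3 and 61.4 CPM in WT mice (61.5 ± 3.16, n = 3). The groups overlapped, and the log2 change was 0.05 ± 0.09 (edgeR adjusted p = 1), with an approximate 95% interval of -0.13 to 0.22. A loss of the size seen at 11 months lies outside this interval. The difference between the ages, tested directly, was -0.80 ± 0.12 on the log2 scale (edgeR adjusted p = 4.50e-06). Over the 4 groups of this series, tau mice at 6 months and WT mice at both ages overlapped, and tau mice at 11 months stood alone below them.

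CK-p25 mice at 2 weeks also had less H3K9ac over the broad Gad1 domain. It was at 42.8, 39.6 and 32.7 CPM in CK-p25 mice (mean 38.4 ± 5.18), against 54.5, 55.0 and 59.0 CPM in CK mice (mean 56.1 ± 2.47, SD, n = 3 each). No CK-p25 library reached the lowest CK library, and the ratio was 0.696. The log2 change was -0.52 ± 0.12 (SE; edgeR adjusted p = 0.00223).

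At 6 weeks the difference did not pass. The broad Gad1 domain was at 40.7, 43.2 and 44.0 CPM in CK-p25 mice (mean 42.7 ± 1.73), against 43.5, 44.1 and 62.5 CPM in CK mice (mean 50.05 ± 10.8, SD, n = 3 each). The groups overlapped, and the high CK value came from the shallowest library of the study. The log2 change was -0.17 ± 0.14 (edgeR adjusted p = 0.688; approximate 95% interval -0.44 to 0.10). Without replicate 3 of both groups it was -0.06 (edgeR adjusted p = 0.951). The effect at 6 weeks minus that at 2 weeks was 0.35 ± 0.18 on the log2 scale and did not pass (edgeR adjusted p = 0.999), so the times are not shown to differ. From the highest mean to the lowest, CK at 2 weeks, CK at 6 weeks, CK-p25 at 6 weeks and CK-p25 at 2 weeks each overlapped the next.

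**Figure D1:**
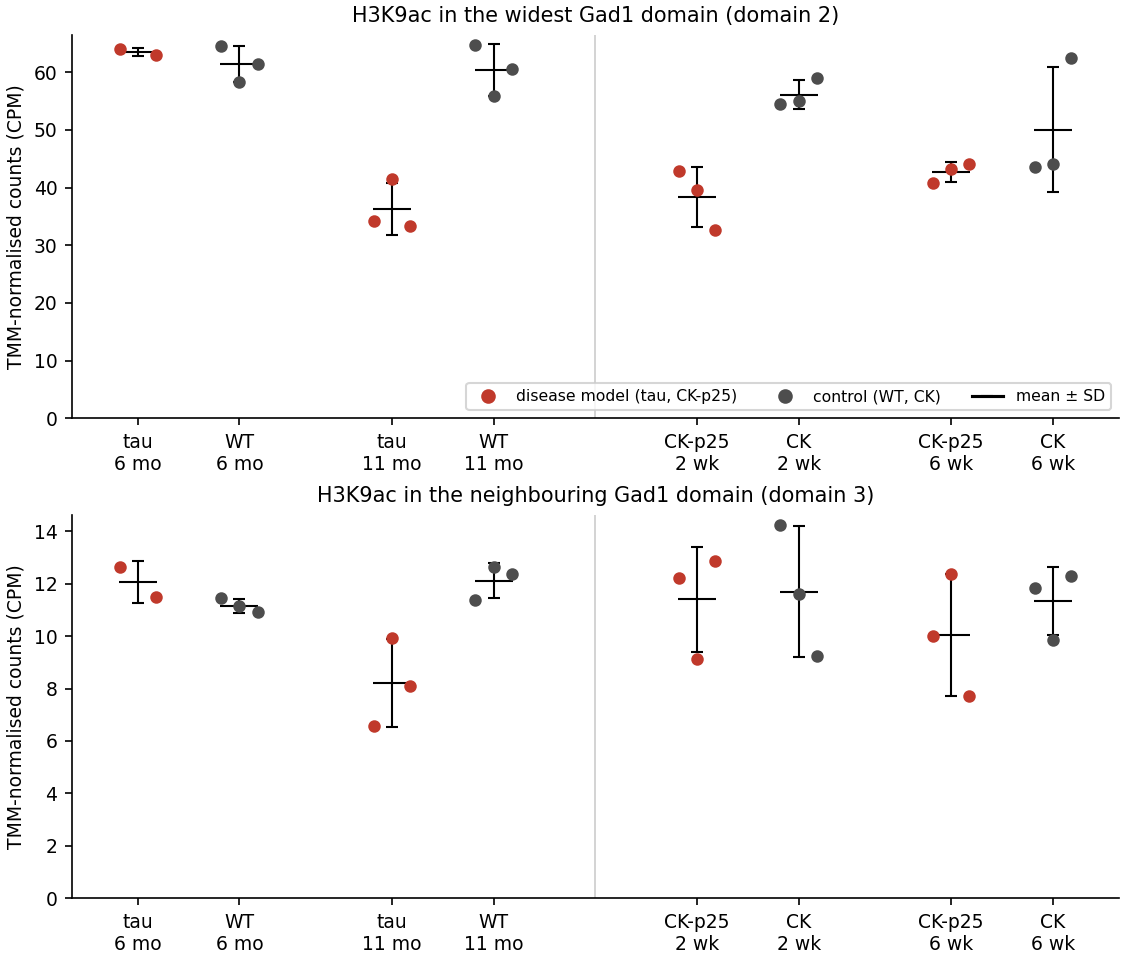
H3K9ac (TMM-normalised CPM, linear axes from 0) per library in Gad1 domain 2 (top) and Gad1 domain 3 (bottom) for the 8 groups, with the disease model (red) left of its control (grey) and bars for the mean ± SD. In domain 2 the 3 tau libraries at 11 months lie at 33.3 to 41.4 CPM, below all 3 WT libraries at 55.8 to 64.7 CPM, and the line divides the models, whose levels are not comparable.

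The neighbouring Gad1 domain 3 fell as well in tau mice at 11 months. It was at 6.57, 9.94 and 8.10 CPM in tau mice (8.20 ± 1.69, SD, n = 3), against 11.4, 12.6 and 12.4 CPM in WT mice (12.1 ± 0.669, n = 3). All tau libraries were below all WT libraries (log2 -0.58 ± 0.18, edgeR adjusted p = 0.0222). This call rests on few reads, 36 to 44 per tau library. It ended without tau replicate 1 (log2 -0.44, edgeR adjusted p = 0.171), without tau replicate 3 (0.0651), without WT replicate 2 (0.0763) or without WT replicate 3 (0.0587). It also ended with cross correlation as a covariate (log2 -1.01, edgeR adjusted p = 0.223).

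In the other comparisons Gad1 domain 3 did not pass. At 6 months it was at 12.6 and 11.5 CPM in tau mice, against 11.4, 11.1 and 10.9 CPM in WT mice (log2 0.11 ± 0.20). At 2 weeks it was at 12.2, 9.13 and 12.9 CPM in CK-p25 mice, against 14.2, 11.6 and 9.23 CPM in CK mice (log2 -0.06 ± 0.22). At 6 weeks it was at 9.996, 12.4 and 7.73 CPM in CK-p25 mice, against 11.8, 9.87 and 12.3 CPM in CK mice (log2 -0.12 ± 0.26). The CK-p25 groups overlapped at both times, and the tau effect was not shown to differ between ages here (difference -0.70 ± 0.27, edgeR adjusted p = 0.154). Gad1 domains 1 and 4 are narrow, with 1 to 29 reads per library, and neither passed in any comparison in which it was tested.

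Gad2, the other GABA-synthesising gene, had 2 domains in its window (chromosome 2 from 22465000 to 22550000). Domain 1 lay at 22477569 to 22478321 and domain 2, with the higher CPM, at 22478632 to 22479472. Per kb in the tau series, domain 1 held 8.19 and domain 2 held 7.95 CPM. Domain 2 was at 6.57, 8.48 and 6.26 CPM in tau mice at 11 months, against 6.09, 5.83 and 7.80 CPM in WT mice. The groups overlapped, with a log2 change of 0.08 ± 0.22 (approximate 95% interval -0.34 to 0.51). A loss as large as that of the broad Gad1 domain lies outside this interval. At 6 months Gad2 domain 2 was at 6.91 and 5.96 CPM in tau mice, against 6.36, 6.86 and 6.47 CPM in WT mice (log2 -0.02 ± 0.26).

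In the p25 model Gad2 domain 2 was at 6.85, 5.21 and 5.88 CPM in CK-p25 mice at 2 weeks, against 5.45, 9.29 and 7.18 CPM in CK mice. The groups overlapped (log2 -0.34 ± 0.29, edgeR adjusted p = 0.775). At 6 weeks it was at 5.61, 5.36 and 9.27 CPM in CK-p25 mice, against 3.84, 3.95 and 3.08 CPM in CK mice. All CK-p25 libraries were above all CK libraries, yet on 3 to 23 reads each the log2 change of 0.72 ± 0.39 did not pass (edgeR adjusted p = 0.450).

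Slc32a1, the vesicular GABA transporter gene, had 1 domain (chromosome 2, 158436682 to 158437467) in its window from 158425000 to 158450000. It was at 10.4, 11.4 and 7.54 CPM in tau mice at 11 months, against 8.07, 8.95 and 8.13 CPM in WT mice. In the 6-month groups it was at 4.54 and 4.47 CPM in tau mice, against 5.09, 4.50 and 8.89 CPM in WT mice. Tau and WT overlapped at both ages, with log2 changes of 0.21 ± 0.20 at 11 months and -0.46 ± 0.29 at 6 months. At 2 weeks it was at 6.12, 3.13 and 6.98 CPM in CK-p25 mice, against 4.61, 6.45 and 5.64 CPM in CK mice. After 6 weeks its level was 6.34, 5.36 and 12.4 CPM in CK-p25 mice, against 6.08, 8.56 and 9.23 CPM in CK mice. These groups overlapped too (log2 -0.11 ± 0.32 and -0.07 ± 0.33), and no edgeR adjusted p was under 0.05.

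Sst, whose window (chromosome 16 from 23880000 to 23900000) held 1 domain from 23897804 to 23899114, had a level per kb near that of the leading Gad1 domain. In the tau series the leading domains held 14.1 (Gad1), 11.4 (Sst), 10.7 (Pvalb), 9.48 (Slc32a1), 7.95 (Gad2) and 7.74 (Dlx1/Dlx2) CPM per kb. In the CK-p25 series the order of the highest levels was the other way, at 12.4 CPM per kb for Sst and 12.1 for Gad1. The Sst domain was at 14.6, 14.8 and 13.8 CPM in tau mice at 11 months, against 13.8, 12.1 and 18.9 CPM in WT mice. Among females at 6 months it was at 13.2 and 19.6 CPM in tau mice, against 14.4, 14.8 and 14.3 CPM in WT mice. The groups overlapped at both ages, with log2 changes of -0.07 ± 0.16 (approximate 95% interval -0.38 to 0.25) at 11 months and 0.17 ± 0.18 at 6 months.

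The Sst domain was at 11.0, 16.4 and 17.6 CPM in CK-p25 mice at 2 weeks, against 18.4, 18.3 and 15.9 CPM in CK mice. After 6 weeks its level was 14.6, 21.1 and 8.50 CPM in CK-p25 mice, against 13.4, 19.1 and 20.5 CPM in CK mice. Both pairs of groups overlapped and neither change passed (log2 -0.27 ± 0.20 and -0.05 ± 0.23).

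Pvalb had 3 domains in its window (chromosome 15 from 78010000 to 78040000), the strongest being domain 3 from 78034198 to 78035082. Pvalb domain 3 was at 10.6, 12.8 and 8.65 CPM in tau mice at 11 months, against 8.07, 9.92 and 7.97 CPM in WT mice. Its level at 6 months was 8.29 and 8.72 CPM in tau mice, against 9.75, 10.3 and 9.29 CPM in WT mice. The groups overlapped at 11 months (log2 0.29 ± 0.19, edgeR adjusted p = 0.353) and did not at 6 months, where both tau libraries were the lower ones (log2 -0.20 ± 0.22, edgeR adjusted p = 1). At 2 weeks it was at 6.85, 9.39 and 8.81 CPM in CK-p25 mice, against 6.70, 6.45 and 9.23 CPM in CK mice. Its level at 6 weeks was 6.34, 5.36 and 6.95 CPM in CK-p25 mice, against 8.96, 5.92 and 8.20 CPM in CK mice. The p25 groups overlapped at both times (log2 0.19 ± 0.27 and -0.38 ± 0.32), and no Pvalb domain passed in any comparison.

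The Dlx1/Dlx2 window (chromosome 2 from 71355000 to 71390000) held 4 domains in 2 close pairs. Domain 4, from 71383409 to 71384772, had the highest CPM. Per kb in the tau series it held 7.74 CPM, below domain 1 (8.15) and domain 2 (7.95). Domain 4 was at 14.4, 12.8 and 9.57 CPM in tau mice at 11 months, against 11.9, 11.5 and 8.29 CPM in WT mice. At 6 months it was at 8.29 and 7.87 CPM in tau mice, against 11.9, 11.6 and 8.08 CPM in WT mice. The groups overlapped at both ages (log2 0.22 ± 0.18 and -0.37 ± 0.23). At 2 weeks domain 4 was at 8.32, 9.91 and 5.14 CPM in CK-p25 mice, against 7.54, 11.4 and 11.8 CPM in CK mice. At 6 weeks it was at 9.02, 9.38 and 13.1 CPM in CK-p25 mice, against 6.399, 5.27 and 11.3 CPM in CK mice. Here too the groups overlapped (log2 -0.36 ± 0.25 and 0.50 ± 0.31).

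Dlx1/Dlx2 domain 1 (71366850 to 71367797) came closest to a gain. It was at 12.05, 11.6 and 8.10 CPM in tau mice at 11 months (10.6 ± 2.17, SD, n = 3), against 6.75, 7.59 and 7.15 CPM in WT mice (7.16 ± 0.416, n = 3). All tau libraries were above all WT libraries, but the log2 change of 0.56 ± 0.20 did not pass (edgeR adjusted p = 0.0520). It passed without tau replicate 3 (log2 0.73, edgeR adjusted p = 0.0159) and with library totals as scaling (0.60, adjusted p = 0.0311). It did not pass with cross correlation as a covariate (log2 0.69, edgeR adjusted p = 0.568), without tau replicate 1 (0.44, adjusted p = 0.247) or with the DESeq2 Wald test (0.57, adjusted p = 0.171). This domain was picked out after its values were seen.

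**Figure D2:**
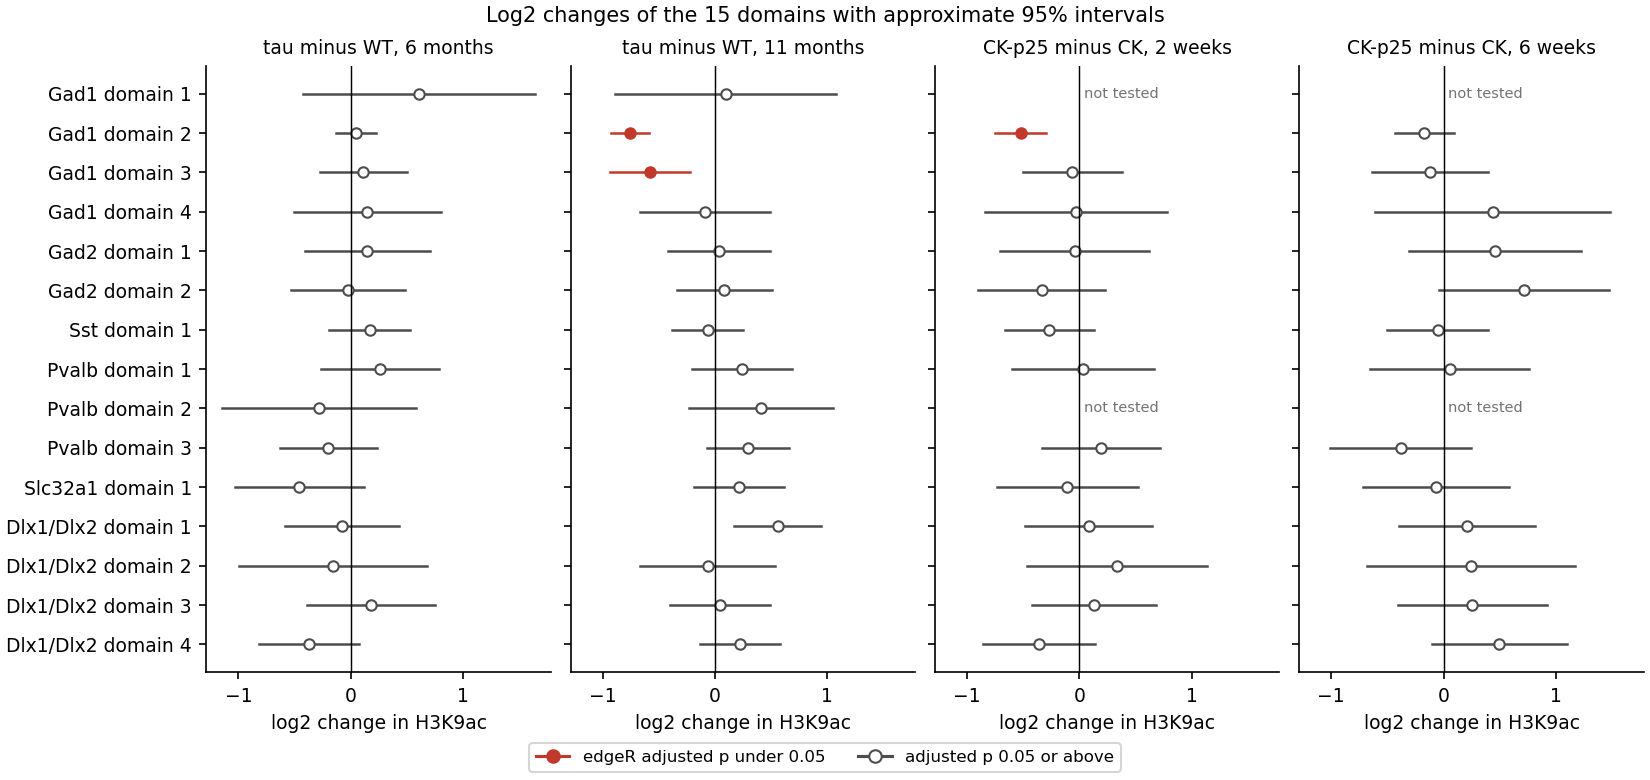
Log2 change in H3K9ac (disease model minus control) of the 15 domains in the 4 comparisons, with approximate 95% intervals; filled red points have an edgeR adjusted p under 0.05, and Gad1 domain 1 and Pvalb domain 2, not tested in CK-p25 mice, have no point there. The filled points are Gad1 domains 2 and 3 in tau mice at 11 months (-0.75 and -0.58) and Gad1 domain 2 in CK-p25 mice at 2 weeks (-0.52).

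In counts, 2 of the 15 domains passed as lower and 0 as higher in tau mice at 11 months. Of all domains tested 12% passed in edgeR's test, 7.56% as lower and 4.4% as higher, so the share among members is near this background. Both members lie in the Gad1 window. Of the widest 10% of domains (2664 bp or more, as Gad1 domain 2 is), 27.3% were lower. At 6 months 0 of 15 passed in edgeR's test (0% of all domains), with 0 in DESeq2 as well and 0 at an unadjusted p under 0.05. At 2 weeks 1 of 13 domains tested was lower in CK-p25 mice, where 2.12% of all domains passed, 0.613% as lower and 1.51% as higher. Of the widest 10% of domains, 3.59% were lower there. At 6 weeks 0 of 13 passed in edgeR's test and 0 in DESeq2, with 0 at an unadjusted p under 0.05, against 2.65% of all domains (1.33% lower, 1.32% higher) and 7.86% of the widest 10% as lower. The tau effect differed between ages at 1 of 15 members, Gad1 domain 2, against 4.23% of all domains (3.21% lower, 1.02% higher). Among the widest 10% of domains, 16.7% were lower in that test. The p25 effect differed between times at 0 of 13, against 0.00524% of all domains.

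The median log2 change of the members was 0.08 in tau mice at 11 months, beside 0.01 over all domains, and 0.05 beside -0.00 at 6 months. In CK-p25 mice it was -0.04 beside -0.00 at 2 weeks and 0.21 beside -0.00 at 6 weeks. Outside the Gad1 window, 0 of 11 domains passed in edgeR's test in any of these 4 comparisons (10 tested in the CK-p25 series). Their log2 changes ran from -0.07 to 0.56 in tau mice at 11 months, with 1 of 11 at an unadjusted p under 0.05, and from -0.46 to 0.26 at 6 months. In CK-p25 mice they ran from -0.36 to 0.34 at 2 weeks and from -0.38 to 0.72 at 6 weeks, with 0 at an unadjusted p under 0.05 at either time. Among the members tested, groups did not overlap at 2 higher and 2 lower domains at 11 months (11.2% and 13.8% of all domains) and at 4 higher and 1 lower at 6 months (9.63% and 10.1%). At 2 weeks these were 0 higher and 1 lower (8.25% and 7.46%), and at 6 weeks 1 higher and 0 lower (8.81% and 8.46%).

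Domains within 500 kb of both the Gad1 and the Dlx1/Dlx2 window were counted with Dlx1/Dlx2 only. Among the other domains within 500 kb of the Gad1 window, 0 of 12 passed in edgeR's test in tau mice at 11 months (2 at an unadjusted p under 0.05). In CK-p25 mice at 2 weeks 0 of 9 passed (0 at an unadjusted p under 0.05). The shares of all domains were 12% and 2.12%. Log2 changes of these Gad1 flanking domains ran from -0.73 to 0.55 at 11 months and from -0.36 to 0.61 at 2 weeks. Of the flanking domains counted with Dlx1/Dlx2, 3 of 27 passed at 11 months and 0 of 25 at 2 weeks. How many of those also lie within 500 kb of the Gad1 window was not determined. Around all 6 windows, 20 of 198 flanking domains (10.1%) passed at 11 months, 5.56% as higher and 4.55% as lower. These shares are near those of all domains tested, 12%, 4.4% and 7.56%, and read as no result about the flanks.

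Summed over the domains of each window, the Gad1 window held 49.5 ± 6.63 CPM in tau mice at 11 months, against 77.7 ± 4.13 CPM in WT mice (SD, n = 3 each). At 6 months it held 81.9 ± 2.04 CPM (n = 2) in tau mice, against 77.8 ± 3.49 CPM (n = 3) in WT mice. The groups were apart at 11 months and overlapped at 6 months. It held 55.0 ± 5.66 CPM in CK-p25 mice at 2 weeks, against 73.8 ± 1.70 CPM in CK mice, and 57.3 ± 3.27 against 65.1 ± 10.3 CPM at 6 weeks (n = 3 each). At 2 weeks all CK-p25 libraries were the lower ones, while at 6 weeks the groups overlapped. The Pvalb window held 21.2 ± 2.63 CPM in tau mice at 11 months, against 17.1 ± 1.06 CPM in WT mice, with all tau libraries higher. That difference was not tested for the sum, and no Pvalb domain passed. Windows differ in the length covered by domains, from 786 bp (Slc32a1) to 5922 bp (Gad1), so these sums are compared between groups and not between genes.

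**Figure D3:**
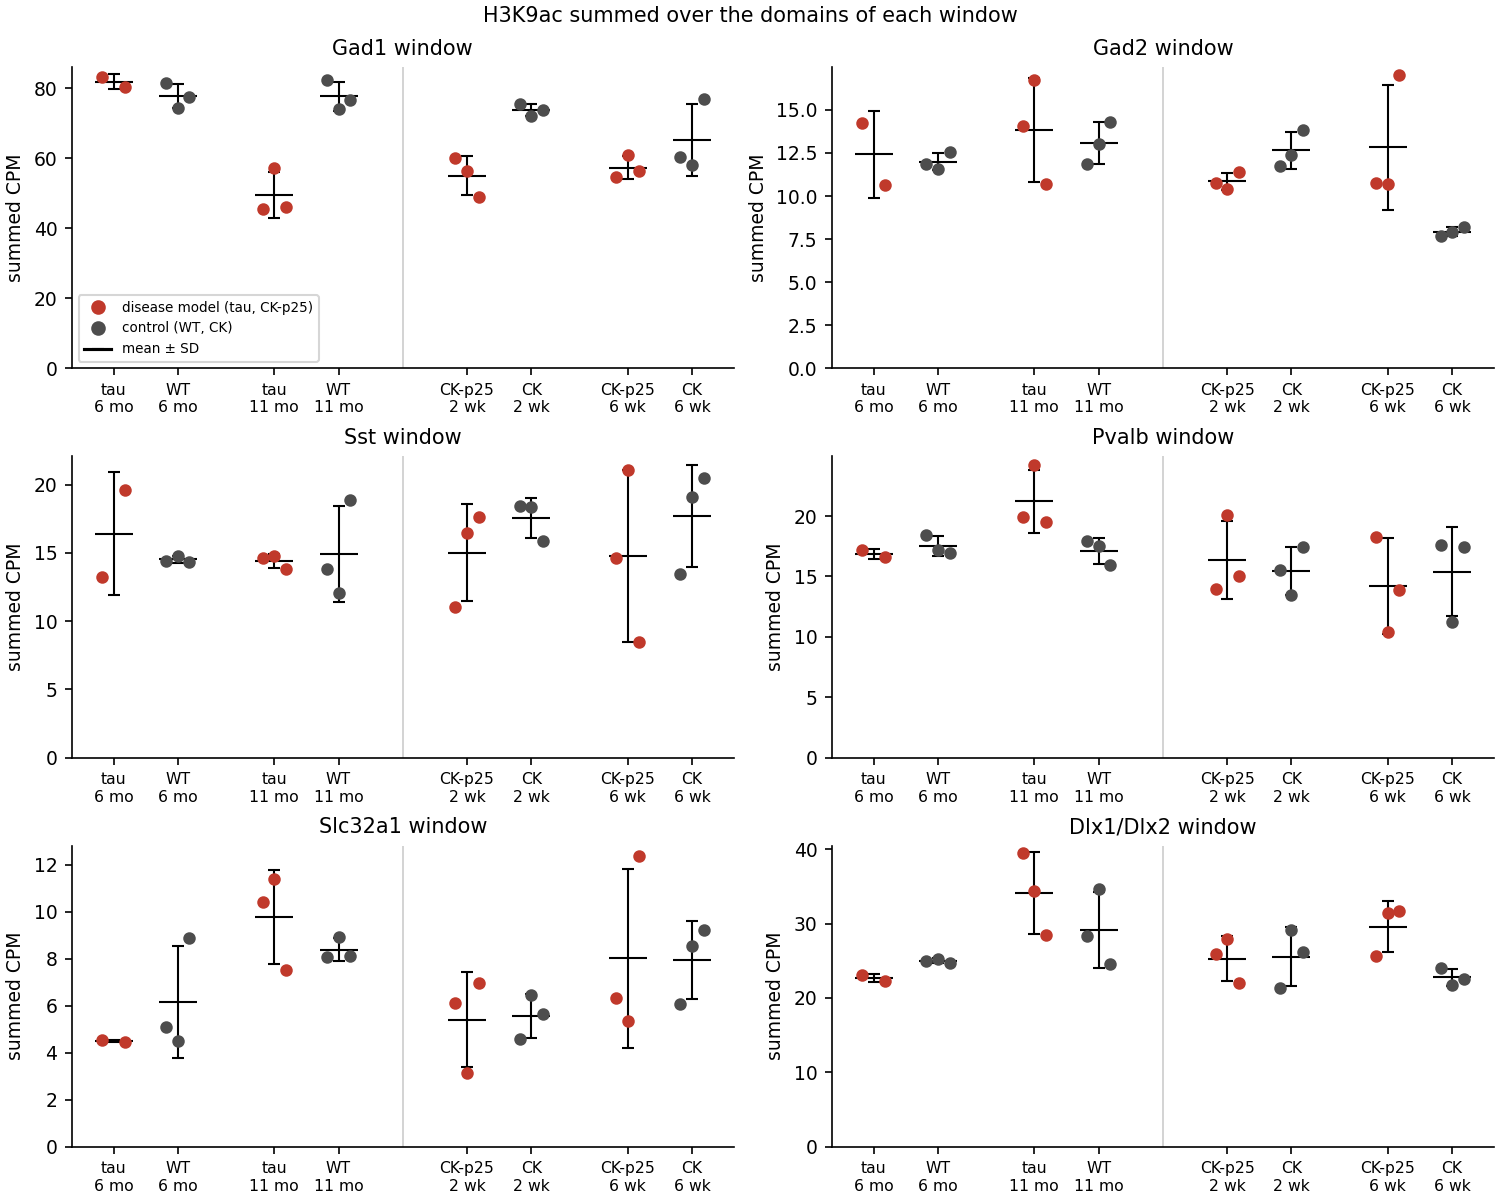
Summed H3K9ac (TMM-normalised CPM, linear axes from 0) over the domains of each of the 6 windows, per library, with bars for the mean ± SD and each disease model (red) left of its control (grey). In tau mice at 11 months the Gad1 sum (49.5 CPM) lies below that of WT mice (77.7 CPM), while Gad2, Sst, Slc32a1 and Dlx1/Dlx2 overlap. All Pvalb sums of tau mice lie above those of WT mice (means 21.2 and 17.1 CPM), a difference that was not tested.

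Reads of the Gad1 window were also set against the reads of the 5 other windows in the same library, a ratio that does not depend on the scaling between libraries. It was set out after the values had been seen and is given without a test. Cross correlation differed between tau and WT libraries at 11 months without overlap (0.228 against 0.313). Whether the ratio moves with it was not tested. The ratio was 0.462, 0.563 and 0.575 in tau mice at 11 months, against 1.03, 0.860 and 0.938 in WT mice. At 6 months it was 1.15 and 1.09 in tau mice, against 1.09, 1.01 and 1.00 in WT mice. Tau libraries were thus below WT libraries at 11 months and above them at 6 months. At 11 months the Gad1 sum was 0.638 times that of WT mice. The other sums were 1.24 (Pvalb), 1.17 (Dlx1/Dlx2), 1.17 (Slc32a1), 1.06 (Gad2) and 0.965 (Sst) times those of WT mice. The other windows were thus part of the difference at 11 months. In CK-p25 mice the ratio was 0.884, 0.722 and 0.668 at 2 weeks, against 1.05, 0.903 and 0.935 in CK mice. At 6 weeks it was 0.723, 0.771 and 0.676 in CK-p25 mice, against 0.879, 0.846 and 0.987 in CK mice. All CK-p25 libraries were below all CK libraries at both times. At 6 weeks the other windows were part of this difference. The Gad2 and Dlx1/Dlx2 sums were 1.62 and 1.30 times those of CK mice, with all CK-p25 libraries higher, while the Gad1 sum was 0.881 times that of CK mice and overlapped. The Gad2 sums of CK mice at 6 weeks rest on only 24, 12 and 8 reads.

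**Figure D4:**
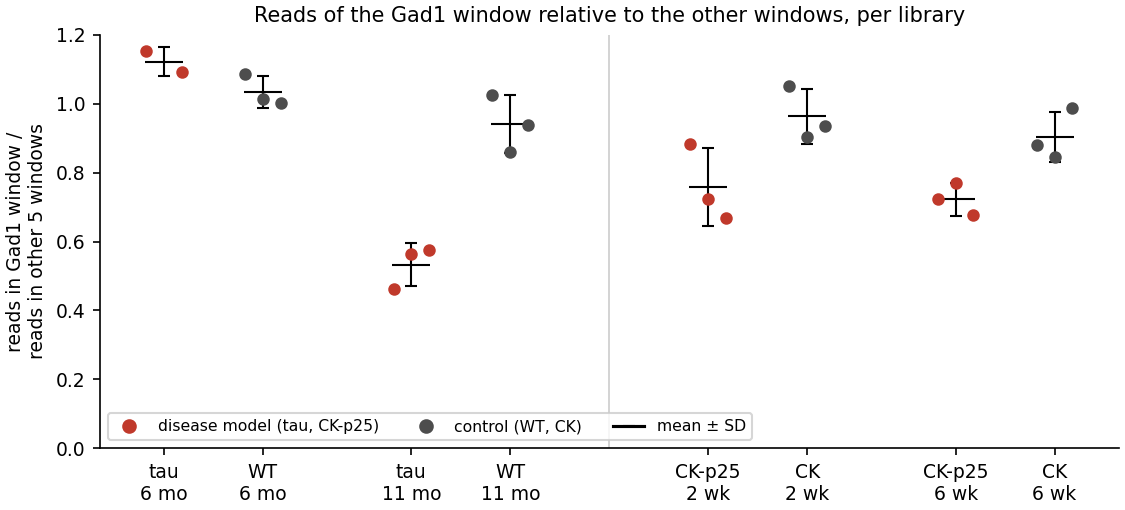
Reads in the Gad1 window divided by reads in the other 5 windows of the same library (linear axis from 0), with bars for the mean ± SD and each disease model (red) left of its control (grey). The 3 tau libraries at 11 months lie at 0.462 to 0.575 and the 3 WT libraries at 0.860 to 1.03.

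Members differed in how they varied with the broad Gad1 domain from library to library. Over the 23 libraries, centred within each model, Pearson's r of the log2 CPM with Gad1 domain 2 was 0.56 for Gad1 domain 3. Of 38154 domains outside the windows, 7.48% had a higher r, so this value is not exceptional. For the other 13 members r ran from -0.64 (Dlx1/Dlx2 domain 1) to 0.21 (Gad1 domain 1). These values share libraries and depth and include the differences between groups. Domains most like it lay elsewhere, on chromosome 8 from 126953163 to 126958093 (r = 0.947), chromosome 9 from 58043494 to 58053100 (r = 0.932) and chromosome 19 from 6496385 to 6505193 (r = 0.926). Among 38154 domains the median r was -0.01 and the uppermost 1% began at 0.811. The domain on chromosome 8 spans 4931 bp, and its log2 changes were -0.68 in tau mice at 11 months, 0.07 at 6 months, -0.46 in CK-p25 mice at 2 weeks and -0.30 at 6 weeks. Those of the domain on chromosome 9 were -0.84, 0.12, -0.39 and -0.44 in the same order, and those of the domain on chromosome 19 were -0.66, -0.06, -0.24 and -0.22. At 11 months each of the 3 passed, and at 2 weeks the domain on chromosome 8 did (edgeR adjusted p = 7.71e-05), while those on chromosomes 9 and 19 did not (0.0776 and 0.0907). The likeness that chose them includes these differences, so they are a description.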

How the data were processed

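H3K9ac ChIP-seq of mouse hippocampus was analysed in 23 of 45 libraries; the 22 input libraries have no column in the count table. The authors deposited raw read counts for 44165 domains common to all libraries, and 0 count columns were left without a sample. Per the submitters' processing notes, BWA, Picard 1.1175, MACS2 and build mm9 were used, with no roles given. Sequencing was single-end, per the labels' protocols, and reads carry no molecular identifiers. Domain positions, in the deposited interval list, are printed 1-based.

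Domains that overlap the 6 windows were taken. The members and lists were chosen with earlier results of these data known. Each model was fitted apart on its whole table with edgeR 4.0.16 in R 4.3.3 (TMM factors, filterByExpr by group, robust quasi-likelihood F test, Benjamini-Hochberg adjustment over all domains tested, threshold 0.05), 1 mean per group. All 15 members passed the low-count filter in the tau series. In the CK-p25 series 13 did, without Gad1 domain 1 and Pvalb domain 2. Standard errors are the size of the log2 change over the square root of F. Window sums, the ratio and correlations were not tested. Values are given in every library for the strongest domain of each window and for members past the threshold. The strongest, or leading, domain is the one with the highest mean CPM over all 23 H3K9ac libraries, not adjusted for width. The 3 domains most like Gad1 domain 2 were named by Pearson's r. The procedure was tested on simulated counts.

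Genes without a window (markers of other cell types, other genes of the GABA system) were not analysed here, since no annotation of mm9 was used. Replicate pairs differed beyond sampling noise (chi-square per degree of freedom 1.10 to 1.88). Alternatives were DESeq2 size factors, library totals, no filter, the DESeq2 1.42.0 Wald test, a replicate block, cross correlation as covariate, compared groups alone, other window bounds and each library left out. Leaving out both shallow 6-week libraries was added after seeing the data.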

Additional observations from a re-analysis of the deposited data

Results flagged for a closer look

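The effect of tau on Gad1 domain 2 differed between 11 and 6 months by -0.80 on the log2 scale, in edgeR's test of the difference itself (adjusted p = 4.50e-06). Among the widest 10% of domains, which include this one, 16.7% were lower in the same test. Age and sex differ between these groups at once and cannot be told apart. Cross correlation also differed between tau and WT libraries at 11 months (0.228 against 0.313), while at 6 months it was close (0.243 against 0.245).

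The values of the summed Gad2 window lay on opposite sides of the CK values at the 2 times after p25 induction, without overlap at either. Neither difference was tested for the sum, and neither Gad2 domain passed at either time (edgeR adjusted p = 0.987 and 0.775 at 2 weeks, 0.717 and 0.450 at 6 weeks). It held 10.9 ± 0.484 CPM in CK-p25 mice against 12.7 ± 1.08 CPM in CK mice at 2 weeks, a log2 ratio of the means of -0.22. At 6 weeks it held 12.8 ± 3.63 CPM in CK-p25 mice against 7.93 ± 0.263 CPM in CK mice (SD, n = 3 each), a log2 ratio of 0.69. The highest CK-p25 value at 6 weeks, 17.0 CPM, is that of the library with 1.31 M reads. The CK sums at 6 weeks rest on only 24, 12 and 8 reads, the last from the library with 0.996 M reads. Such counts are too few for the SD of 0.263 CPM to be read as precision. The difference between the times was not tested for the sum. For Gad2 domain 2 it was 1.05 ± 0.48 and did not pass (edgeR adjusted p = 0.999).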

How the results depend on the processing

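The loss over Gad1 domain 2 passed under all 13 alternatives in tau mice at 11 months (log2 -0.84 to -0.70, highest adjusted p = 0.0182 in edgeR or DESeq2) and all 13 in CK-p25 mice at 2 weeks (-0.61 to -0.45, highest adjusted p = 0.0415). Its difference between ages passed under all 17 (-0.89 to -0.74, highest adjusted p = 0.0352). The number of members past the threshold in tau mice at 11 months was 2. It was 1 with cross correlation as a covariate and 1 with the DESeq2 Wald test, and 1 to 2 with each library left out. It was 3 with DESeq2 size factors, with library totals and without the filter, where Dlx1/Dlx2 domain 1 was added as higher. The domain lost in the smaller counts was Gad1 domain 3 (DESeq2 adjusted p = 0.0997). Dlx1/Dlx2 domain 1 passed with DESeq2 size factors (0.57, edgeR adjusted p = 0.0480), library totals, no filter (0.0487) and without tau replicate 3, which are 4 of 13 alternatives. Over the 13 its adjusted p ran from 0.0159 to 0.568. The counts in the 5 other comparisons did not move under the alternatives run. Of 1218 member values under alternatives, 1208 kept their call or, where uncalled, stayed uncalled, and 0 called values reversed. Only 56 of the 1218 were alternatives of called values, of which 50 kept the call and 6 lost it. Most of the 1208 are thus uncalled values, which were counted as kept even where their log2 change crossed 0, as some did. Scaling by library totals gave 2705 gains and 2775 losses over all domains at 11 months, against 1940 and 3333 with TMM. Same-numbered libraries did not deviate together (r -0.01 to 0.05), so numbers were not taken as pairs. With a replicate block Gad1 domain 2 was at -0.74 (edgeR adjusted p = 1.17e-09) at 11 months and -0.53 (0.00511) at 2 weeks, and the members called were 2, 0, 1 and 0 for tau at 11 and 6 months and p25 at 2 and 6 weeks. Narrow domains hold few reads and have wide intervals, so changes at domains that did not pass are not shown to be absent.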

Other observations

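H3K9ac at the Slc32a1 domain ran at 7.54 to 11.4 CPM in tau mice and 8.07 to 8.95 CPM in WT mice at 11 months, and at 4.47 to 4.54 CPM in tau mice and 4.50 to 8.89 CPM in WT mice at 6 months. The summed Dlx1/Dlx2 window held 34.1 CPM in tau mice and 29.2 CPM in WT mice at 11 months, and 22.7 CPM in tau mice and 24.98 CPM in WT mice at 6 months. All tau libraries were below all WT libraries for this sum at 6 months, where no Dlx1/Dlx2 domain passed. The Slc32a1 and Dlx1/Dlx2 values were picked out after they were seen. The ages were not tested against each other within a genotype, and age and sex changed together. At 6 weeks all CK-p25 libraries were above all CK libraries for the summed Dlx1/Dlx2 window, at 29.6 ± 3.46 CPM in CK-p25 mice and 22.8 ± 1.15 CPM in CK mice (SD, n = 3 each). This was not tested for the sum, and no Dlx1/Dlx2 domain passed there.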
